A study of Oncorhynchus mykiss with 6 samples.

Results

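Among the miRNAs predicted in small RNA of rainbow trout (Oncorhynchus mykiss) skin, some stand in the deposited table more than once, each time under another number but with the same mature sequence. The sequences described here were chosen by their level: a predicted sequence listed in at least 2 rows, averaging 1 TPM or more across the 6 libraries, with a TPM of 0 where the count was 0. They number 82, out of 221 predicted sequences listed more than once and 902 predicted sequences in all. They fill 216 of the table's 1939 entries, of which 214 reached 1 TPM. The other 2 are further entries of m0454-3p, read less often. No known miRNA of the table has one of these 82 sequences. The rule used the level, so levels are given as a description. It averaged over both skin colours, so a sequence read mainly in 1 group can reach the floor through that group: 11 of the 82 averaged 1 TPM or more only in WR and 4 only in YR, while 67 did so in both. For those 15 the difference between the groups helped to decide membership and is given as a description.

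Dorsal skin of fish aged 45 days was sampled from 2 groups of 3 libraries each. WR is the wild-type genotype with black skin, and YR is the yellow mutant with yellow skin. The labels do not name the mutated gene. They also do not say whether each library holds a different fish, so p-values cover the spread between libraries, which may be technical. The design asks which miRNAs may take part in forming the colour of the skin.

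A miRNA is cut from 1 arm of a hairpin precursor, the 5p or the 3p arm, and pairs with its targets mainly through its seed, bases 2 to 8 counted from the 5′ end. Several hairpins of a genome may give the same mature miRNA, and reads of such a miRNA cannot be assigned to one of them by sequence alone. Salmonid fish descend from an ancestor that doubled its whole genome, and their genomes also hold many copies of transposons. Programs that predict miRNAs look for reads at a hairpin, so that a sequence with several such places in the genome can be listed several times. Each sequence is called here by the number and arm of its entry with the highest summed count, as m0001-5p, without the prefix that marks predicted entries in the table.

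The sequences with the highest level and those that differed between the groups are shown first, 5′ to 3′ with the seed in capitals and T for U, as in the deposited table. The 10 of highest mean TPM, in falling order, were:
m0001-5p: tACGGTATgttatgtagactac
m0005-5p: gCTTTGACaatgttgcactact
m0007-5p: tTGCTGGTgacactgtctgtga
m0020-5p: aCCCTGTAgaaccgaatttgtgtt
m0016-3p: aCGACCGGtctctatagccaga
m0047-3p: cTCACTGAtcaatgaatgcaga
m0029-5p: tATAGTGCacttctcttgacc
m0041-5p: tGCCCGCAttctccacca
m0085-3p: cAAGGCACacttaaccagcatg
m0060-5p: tATTCCCTatgtagagcacta

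Past the threshold in the comparison of YR with WR were m0060-5p, printed above, and 6 scarcer sequences:
m0216-5p: tACGGTATctcacggactctt
m0154-5p: tTGTGGACcctgagtttcaccc
m0225-3p: tAGCTAGTgactgtgtagtact
m0246-3p: tCACTTACtgtacctctggtat
m0141-5p: aTTGTGCActacttttgactag
m0433-3p: tTGAGTCAgccgtgtagtgct

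The m0001-5p and m0216-5p sequences share a seed. The other printed seeds differ from each other, and the 82 sequences hold 76 distinct seeds.

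The libraries held 8245698 to 10336991 counts, so that 1 read was worth 0.101 to 0.127 TPM. Known miRNAs of epidermis summed to 66930 to 89180 TPM per library, and those of dermis and mesenchyme to 303400 to 383700 TPM, so markers of the labelled tissue were present. Lists of other cells were lower, with 34310 to 45660 TPM for pigment cells, 13010 to 24430 for skeletal muscle and 226.5 to 471.9 for red blood cells. Summed marker levels did not overlap between the colours in 2 lists: epidermis stood at 84310 to 89180 TPM in WR against 66930 to 79250 in YR, and miR-122, of liver, at 38.8 to 51.8 against 5.33 to 12.9 TPM. Dermis and mesenchyme overlapped as a list (303400 to 328700 TPM in WR, 305200 to 383700 in YR). Its miR-199-y, however, stood at 19490 to 28490 TPM in WR and 31180 to 32550 in YR. The part of marker levels in the differences between the groups was not tested. WR replicate 1 stood apart: it differed from the other WR libraries by a chi-square per degree of freedom of 563 and 701, beside 86.9 between those, and known entries named after a cluster that is imprinted in placental mammals took 36786 counts there and 693 to 1192 in the other 5 libraries. In YR, replicate 3 differed from the other libraries by 306 and 151, beside 83.3 between those. For the called sequences other than m0433-3p the log2 fold change, and for the 82 the share of the counts, are given with and without WR replicate 1. Calls without each single library, YR replicate 3 among them, are given below.

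Most of the repeated sequences were scarce. Of the 82, 31 had a mean of 1 to 2 TPM, 29 of 2 to 5 TPM, 13 of 5 to 20 TPM and 9 of 20 TPM or more. Their median level was 2.44 TPM, beside 2.52 TPM for the 192 predicted sequences with a unique sequence and 20.6 TPM for the 418 distinct known sequences at the same floor. The 3 most abundant held 61.4% of the summed TPM and the 10 most abundant 78.1%. In 35 of the 82 at least 1 library had fewer than 10 reads, so that their values carry a wide counting error. Just above the floor stood m0322-5p at 1.04 TPM, m0332-5p at 1.04 TPM and m0445-3p at 1.02 TPM, and just below it m0378-5p at 0.968 TPM, m0345-5p at 0.955 TPM and m0342-5p at 0.95 TPM.

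In 51 of the 82 the sequence was listed 2 times, in 17 of them 3 times, in 9 of them 4 times and in 4 of them 5 times. m0085-3p was listed 7 times, the highest number. The 4 listed 5 times were m0007-5p (101 TPM), m0098-5p (10.5 TPM), m0201-5p (2.28 TPM) and m0179-3p (2.0 TPM), which span low and high levels. Across the 82 sequences the number of entries and the mean TPM had a Spearman rho of 0.21, as a description over sequences that share the same 6 libraries.

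**Figure D1:**
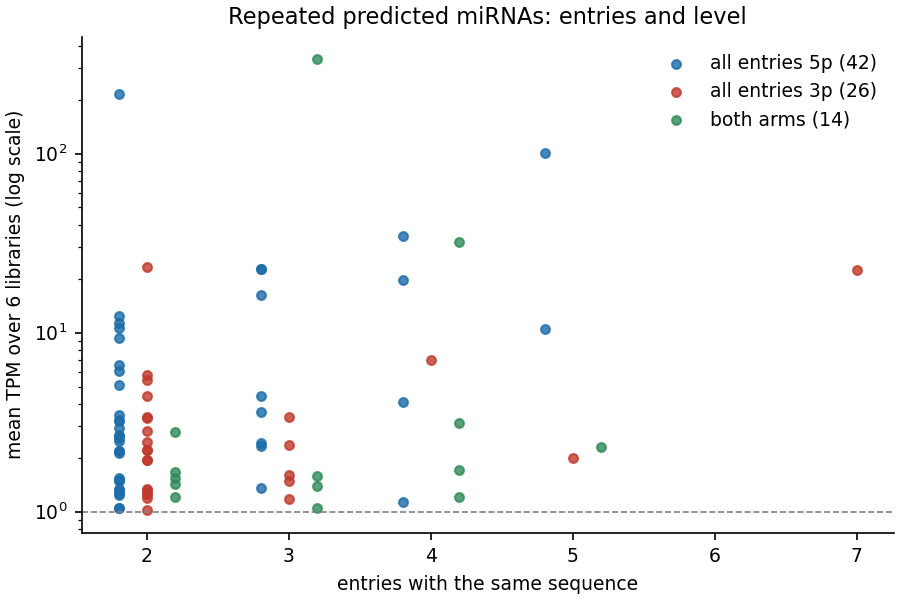
Each point is 1 of the 82 sequences, with the number of entries that list it on the x axis (points are set apart by arm) and its mean TPM over 6 libraries on a log y axis; the dashed line is the floor of 1 TPM. The sequence listed 7 times stood at 22.5 TPM, and the highest level, 336 TPM, belonged to a sequence listed 3 times on both arms.

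The arm label did not always follow the sequence. All entries of 42 sequences were labelled 5p and all entries of 26 were labelled 3p, while 14 sequences carried both labels. Among these 14 were m0001-5p (1 entry 5p, 2 entries 3p), m0016-3p (1 and 3) and m0246-3p (1 and 3). No hairpin number of the predicted entries had both arms in the table, so no ratio of arms could be formed, and no pair of the 82 was reverse complementary over 16 bases.

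Entries of 1 sequence mostly repeated the same numbers. In 71 of the 82 every entry had the same count in each of the 6 libraries, so the repeats add no measurement. In the other 11 the counts differed. The summed counts of the entries lay furthest apart for m0454-3p (2.5-fold), m0060-5p (1.69-fold) and m0222-5p (1.64-fold), and for m0007-5p only 1.01-fold. For m0060-5p the 4 entries had 119, 113, 112 and 78 reads in WR replicate 1. The labels do not say how reads were divided among entries. Added over all entries the repeated sequences made 3191 TPM, and counted once each 1063 TPM.

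By length, 70 of the 82 sequences (85.4%) were 21 or 22 bases long, beside 74% of the unique predicted and 67.2% of the known sequences. T, the base most common at the start of animal miRNAs, began 52.4%, 50% and 46.9% of these groups, and their median GC content was 45.5%, 45.5% and 47.8%. These shares were not tested against each other. m0041-5p was the shortest at 18 bases, and the only one of the 82 to end in CCA, the letters that cells add to the 3′ end of tRNAs.

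The letters AGGGAATA, searched on both strands, were found in 7 of the 82 (8.54%), more than any other run of 8 letters. They were found in 1.56% of the 192 unique predicted and in 0% of the 418 known sequences, in windows of the listed length. The 7 are shown with these letters, or TATTCCCT, their reverse complement, in capitals:
m0060-5p: TATTCCCTatgtagagcacta
m0337-3p: tgcacttcgtAGGGAATAgggt
m0359-5p: TATTCCCTgtttagtgcactac
m0318-5p: cccTATTCCCTctatagtgca
m0233-3p: atgtAGGGAATAgagcgccatt
m0289-5p: aTATTCCCTttctagtgccctg
m0396-5p: aatggcacctTATTCCCTagat

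The letters were picked after the sequences were seen and describe this set only. These 7 did not move alike: m0060-5p was higher in YR, m0318-5p had a log2 fold change of -2.12 (edgeR adjusted p = 0.0705), and the other 5 lay between -0.30 and 0.60. In all, 28 of the 82 shared a run of 10 letters, on either strand, with another of the 82, in 9 groups. Groups were joined as chains, so members of a group need not all share a run with each other. The group of 5 was m0034-5p, m0167-3p, m0231-5p, m0293-5p and m0380-3p, and the group of 3 was m0007-5p, m0266-5p and m0201-5p. These groups were picked after the sequences were seen. A shared run of 10 letters, which may lie on opposite strands, does not make the sequences near copies. At least 16 bases in a row were shared with another predicted sequence by 17 of the 82. Whether reads were divided among those was not tested.

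For 7 of the 82 at least 16 bases in a row were also found in a known miRNA of the table, and m0005-5p differed from a known miRNA at 1 position. These pairs are shown because the predicted sequence overlaps the known one, with other ends or a changed base, and they were picked after the sequences were seen. The known partners of 6 of them were:
miR-10-x: tACCCTGTagaaccgaatttgt
miR-301-x: gCTTTGACgatgttgcactact
miR-199-y: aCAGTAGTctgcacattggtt
miR-150-x: tCTCCCAAtccttgtaccagtgt
miR-338-y: tCCAGCATcagtgattttgttgc
and the predicted sequences beside them, with m0005-5p and m0020-5p already printed, were:
m0051-5p: aCCCTGTAgaaccgaatttgtgtga
m0169-3p: tGAACAGTagtctgcacattggt
m0129-5p: tCTCCCAAtccttgtaccagtgtct
m0179-3p: tCCAGCATcagtgattttgttact

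miR-10, a miRNA of the Hox clusters, had 2 such partners. m0020-5p and m0051-5p both share 21 bases with miR-10-x but start 1 base later, which moves the seed. miR-10-x stood at 23920, 59610 and 61990 TPM in WR and 50200, 41050 and 49800 TPM in YR. m0020-5p stood at 16.1, 62.2 and 52.6 TPM in WR and 32.2, 18.5 and 27.6 TPM in YR, and m0051-5p at 3.41, 20.4 and 19.6 TPM in WR and 10.1, 6.22 and 8.15 TPM in YR. All 3 were lowest in WR replicate 1, through which their groups overlapped. In each of the 3 the other 2 WR libraries stood above every YR library. The known miRNA was 1370 times as abundant as m0020-5p and 4230 times as abundant as m0051-5p. Neither passed the test (log2 fold change -0.55, SE 0.55, and -0.65, SE 0.68; edgeR adjusted p = 0.534 and 0.552).

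m0005-5p has the length of miR-301-x and differs from it by G9A, the known base first and positions counted from the 5′ end. The seed is shared. m0005-5p stood at 275, 251 and 247 TPM in WR and 191, 180 and 152 TPM in YR, and miR-301-x at 183, 155 and 153 TPM in WR and 113, 112 and 99.3 TPM in YR. Each was higher in every WR library than in any YR library, and the predicted one was the more abundant. Neither passed the test, with log2 fold changes of -0.33 (SE 0.12) and -0.35 (SE 0.13) and an edgeR adjusted p of 0.19 for each. As 1 base separates them, reads of one may be counted for the other.

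The other predicted partners were scarce. m0169-3p, at 3.40 TPM, starts 3 bases before miR-199-y, a miRNA of mesenchyme, which was 8090 times as abundant. miR-199-y rose in YR (log2 fold change 0.73, SE 0.13; edgeR adjusted p = 0.0341), and m0169-3p did not pass (0.36, SE 0.40; edgeR adjusted p = 0.576). m0129-5p holds all 23 bases of miR-150-x, a miRNA of lymphocytes, and 2 more at the 3′ end; it stood at 2.64 TPM and the known one at 46.8 times that level. m0179-3p, listed 5 times, shares its first 21 bases with miR-338-y, a miRNA of the nervous system, and stood at 2.0 TPM. The others were m0206-5p, which starts 1 base before miR-725-x, first named in fish, and m0231-5p, whose first 16 bases are those of miR-8162-x. For these predicted partners WR and YR overlapped in TPM, except for m0231-5p, described below.

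**Figure D2:**
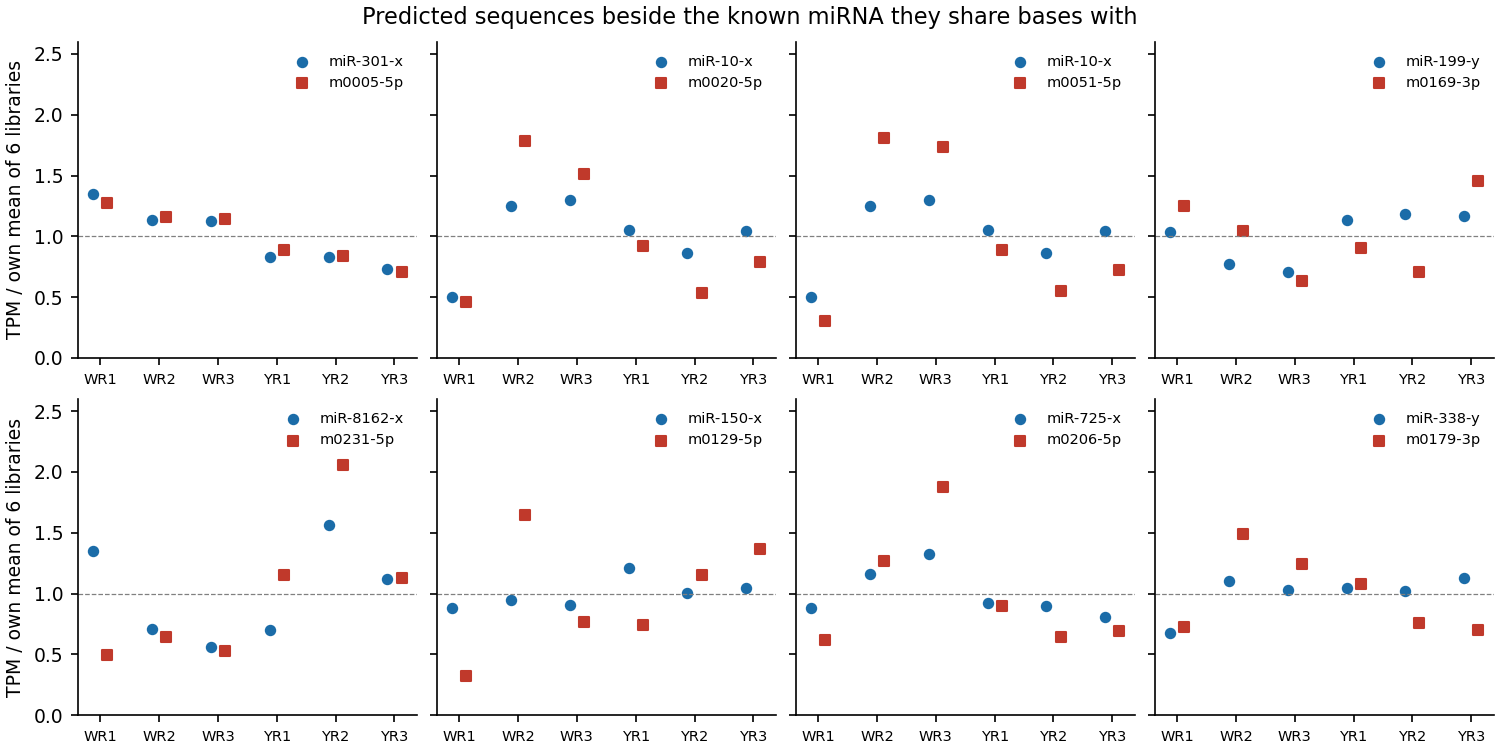
Each panel pairs a predicted sequence (squares) with the known miRNA it shares bases with (circles) and gives TPM divided by the mean of its own 6 libraries, for each library on the x axis. The miR-10-x panels have WR replicate 1 lowest for both members of the pair, and in the miR-301-x panel the 3 WR libraries lie above the 3 YR libraries for both.

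Seeds of known miRNAs that reached 1 TPM recurred in 14 of the 82 (17.1%), beside 17 of the 192 unique predicted sequences (8.85%), a difference that was not tested. None of the 14 had the seed of one of the 50 most abundant known entries. m0222-5p and m0396-5p hold the seed of miR-183-x, a miRNA of sensory organs, m0085-3p that of miR-124-y, a miRNA of neurons, and m0266-5p and m0201-5p that of miR-138-x. They were named after their values were seen, and a shared seed is a description of letters, not of shared targets.

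Between skin of the 2 colours, 2 of the 82 repeated sequences were higher and 5 were lower in YR, and 75 did not pass. Fold changes are those of edgeR's quasi-likelihood test after TMM scaling, with p-values adjusted by Benjamini-Hochberg over the 834 entries that reached 1 TPM, and a threshold of 0.05. Of all 834 entries 2.16% were higher, 3.12% were lower and 5.28% were called in either direction, and of the 82 sequences 8.54% were called, beside 8.85% of the unique predicted and 2.39% of the distinct known ones. As 3 of the 5 lower ones, m0433-3p, m0225-3p and m0246-3p, reached the floor through WR only, these shares are no support for a difference of the 82 from other entries. The median log2 fold change was 0.07 over the 82 and -0.03 over all 834 entries, with 43 of the 82 positive and 39 negative. With library totals in place of TMM these medians were -0.148 and -0.256. The groups did not overlap in TPM for 30 of the 82 (36.6%), 19 with WR above YR and 11 with YR above WR. Beside these stand 28.3% of all 834 entries, 19.7% with WR above and 8.63% with YR above, 27.7% of the 692 distinct sequences, 39.1% of the unique predicted and 20.8% of the distinct known sequences. Some of the 30, m0433-3p, m0225-3p, m0246-3p and m0310-5p among them, reached the floor only through the group where they were higher. The shares without overlap are therefore likewise no support for a difference of the 82 from other entries.

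**Figure D3:**
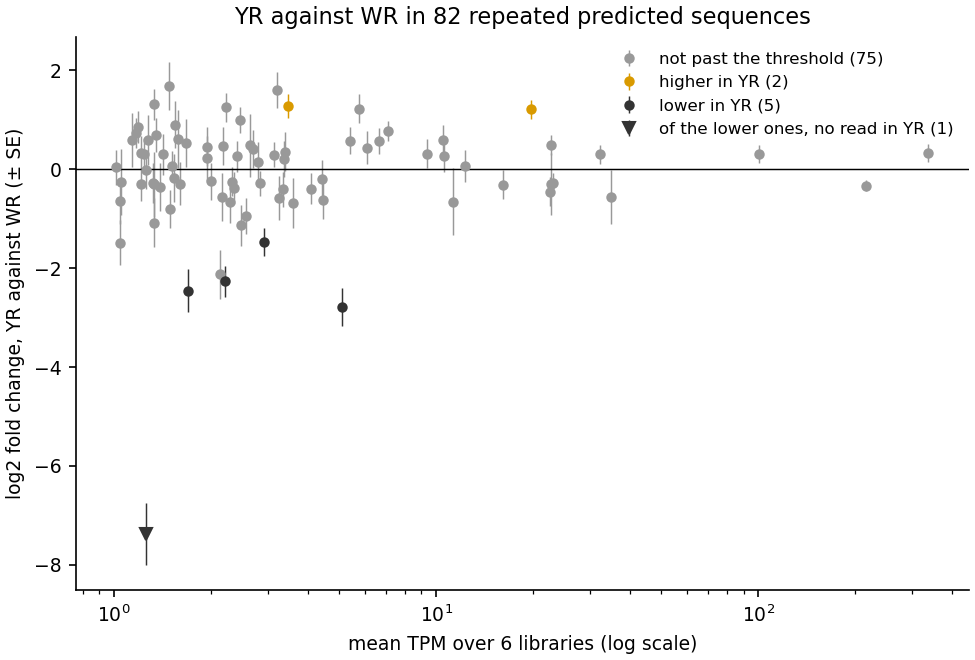
Each point is 1 of the 82 sequences, with mean TPM over 6 libraries on a log x axis and the log2 fold change of YR against WR on the y axis; bars are SE. The 2 called sequences above 0 and the 5 below it are coloured, and the fitted value of the one with no read in YR (triangle) depends on the prior count and is no estimate of its fold.

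Of the 5 lower in YR, m0433-3p was not read at all there. Its WR libraries had 21, 25 and 19 reads, a mean of 2.52 ± 0.360 TPM (SD, n = 3), and its YR libraries 0, 0 and 0. Scaled by library totals, without TMM, its WR counts stood 23.1-fold above a floor of 3 counts over the YR group. That floor covers the counting error of YR only, and the scale differs from that of the other folds given here. m0433-3p reached 1 TPM through WR alone, so this is a description. It was listed 2 times, with equal counts.

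m0154-5p was the most abundant of the 5. It had 72, 71 and 93 reads in WR and 10, 6 and 15 in YR. Mean TPM was 9.14 ± 1.23 for WR against 1.10 ± 0.379 for YR (SD over 3 libraries). It fell 6.92-fold (log2 fold change -2.79, SE 0.38; edgeR adjusted p = 0.0201). Every WR library stood above every YR library. Without WR replicate 1 the log2 fold change was -3.03.

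m0225-3p and m0246-3p also averaged 1 TPM only in WR, and their values are likewise a description. m0225-3p had 32, 38 and 27 reads in WR and 8, 6 and 4 in YR, with a log2 fold change of -2.27 (-2.45 without WR replicate 1). m0246-3p, listed 4 times with 1 entry labelled 5p, had 25, 26 and 25 reads in WR and 3, 6 and 3 in YR, with a log2 fold change of -2.45 (-2.67 without WR replicate 1). In neither did the groups overlap, and the YR values rest on under 10 reads per library.

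m0141-5p was close to the threshold. It had 41, 43 and 31 reads in WR and 15, 13 and 9 in YR, and fell 2.78-fold (log2 fold change -1.48, SE 0.29; edgeR adjusted p = 0.0404), or -1.61 on the log2 scale without WR replicate 1. Its other entry, m0140-5p, with 39, 42 and 27 against 13, 13 and 6 reads, had a log2 fold change of -1.58 and did not pass (edgeR adjusted p = 0.0705). The call thus differed between entries of the same sequence, the only case among the 82.

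Of the 2 higher in YR, m0060-5p was the more abundant. It had 119, 118 and 102 reads in WR and 305, 215 and 197 in YR, or 13.2 ± 1.5 and 26.1 ± 5.84 TPM (SD over 3 libraries each), and rose 2.32-fold (log2 fold change 1.21, SE 0.20; edgeR adjusted p = 0.0241), or by a log2 fold change of 1.07 without WR replicate 1. All of its 4 entries passed, with log2 fold changes of 1.21, 1.26, 1.27 and 1.33. They list the same sequence in the same libraries, so they are not independent measurements. m0216-5p had 20, 19 and 19 reads in WR and 50, 43 and 35 in YR, or 2.25 ± 0.156 and 4.71 ± 1.04 TPM (SD over 3 libraries each), and rose 2.43-fold (log2 fold change 1.28, SE 0.24; edgeR adjusted p = 0.0371), or by a log2 fold change of 1.12 without WR replicate 1. m0001-5p, which has the same seed and was the most abundant of the 82, did not pass: it stood at 274, 343 and 352 TPM in WR and 376, 353 and 321 TPM in YR, with overlapping groups (log2 fold change 0.33, SE 0.18; edgeR adjusted p = 0.32).

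**Figure D4:**
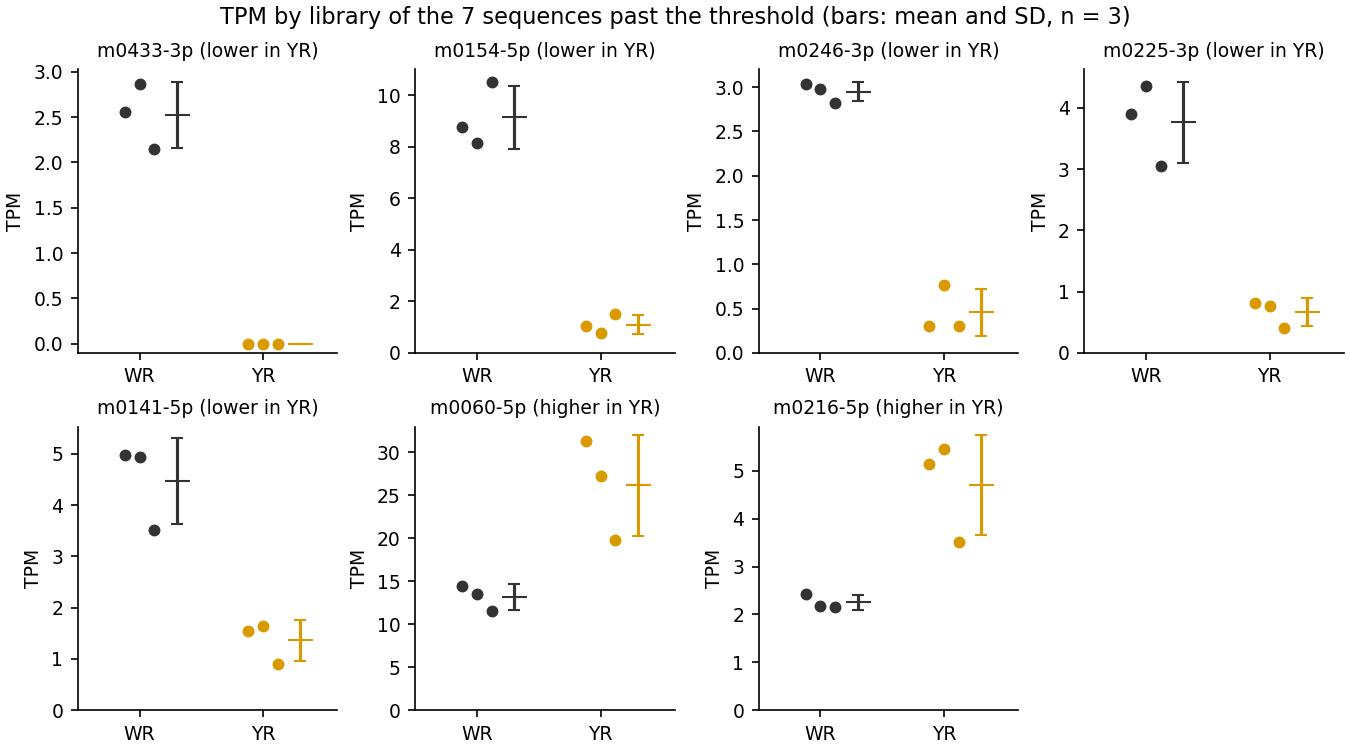
Each panel gives TPM on a linear y axis for the 3 WR and the 3 YR libraries of 1 sequence past the threshold, with the mean and SD (n = 3) beside the points. In all 7 panels the groups do not overlap, and m0433-3p is at 0 in the 3 YR libraries.

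Both higher calls depended on how the table was fitted. With library totals in place of TMM, 0 of the 82 were higher and 4 were lower, beside 0.12% and 3.48% of all entries (3.6% in either direction). The 4 were m0433-3p, m0154-5p, m0225-3p and m0246-3p. The edgeR adjusted p there was 0.0779 for m0060-5p and 0.0838 for m0216-5p. With 1 entry per distinct sequence, which takes the repeats out of the 834 entries and leaves 692, 5 of the 82 were lower and 0 higher, beside 2.75% and 0.434% of the 692 (3.18% in either direction). The 5 were the same as above, and m0060-5p was at an edgeR adjusted p of 0.0501. When the 406 predicted entries were fitted alone, 10 of the 82 were higher and 6 lower, beside 11.3% and 8.87% of the 406 (20.2% in either direction). In each of these fits the log2 fold changes of the 7, which were picked from these same libraries, kept their sign. Of all entries tested, the other settings called 5.16% with median-of-ratios scaling, 9.11% with DESeq2, 4.92% and 4.2% with limma, 1.91% without a filter and 4.83% at a floor of 10 TPM, and the calls among the 82 were 7, 10, 6, 5, 4 and 2. Using library totals on distinct sequences called 3.32% of entries and 4 of the 82, and the replicate block 0.24% and 0.

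The calls also depended on single libraries. Without WR replicate 1, 3 of the 82 were higher and 10 lower, all 7 above among them, beside 3.72% and 10.4% of all entries (14.1% in either direction). Without WR replicate 2, without WR replicate 3 or without YR replicate 1, edgeR called 0 of the 82, with 17, 18 and 18 at an unadjusted p under 0.05, beside 0.12%, 0.6% and 0.24% of all entries called. Without YR replicate 2 the 2 called were m0433-3p and m0246-3p, and without YR replicate 3 m0433-3p and m0154-5p, beside 2.16% and 1.08% of all entries. The direction of the 7 stayed the same without any 1 of the 6 libraries. Their groups did not overlap in TPM, so leaving out 1 library could not reverse the order of the mean TPM. The kept direction is thus a description.

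**Figure D5:**
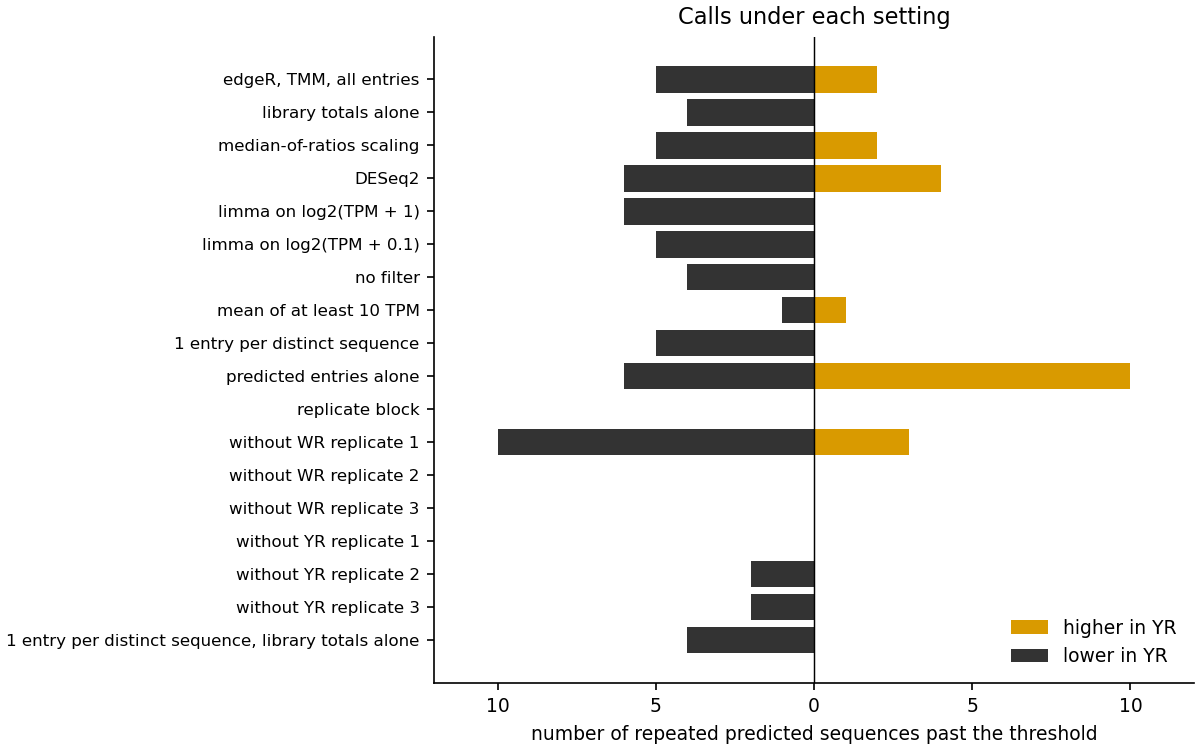
Bars give the number of the 82 sequences past the threshold under each setting, lower in YR to the left and higher in YR to the right of 0. The top bar is the fit used in the text (5 lower, 2 higher), the fit of predicted entries alone has the most higher calls (10), and 4 settings have no bar because 0 were called.

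Close to the threshold stood m0231-5p, with 13, 18 and 15 reads in WR and 36, 52 and 36 in YR (log2 fold change 1.61, SE 0.36; edgeR adjusted p = 0.0614). Next were m0310-5p, m0318-5p, m0208-3p and m0093-3p, each with an edgeR adjusted p of 0.0705 and no overlap between groups. m0318-5p had 35, 34 and 23 reads in WR and 3, 9 and 6 in YR, while the other 3 were higher in each YR library, with log2 fold changes of 1.31, 1.25 and 1.23. These 5 were named after their values were seen, and m0318-5p averaged 1 TPM only in WR and m0310-5p only in YR. An adjusted p under 0.05 stands beside 5 of the 82 in the authors' deposited table, and beside 4.95% of its 1939 entries. The sets are unlike, as only 834 of the 1939 entries reached 1 TPM and repeats count separately among them. The 5 in the authors' deposited table are m0433-3p, m0154-5p, m0225-3p, m0246-3p and m0318-5p, all lower in YR. Of these, only m0154-5p averaged 1 TPM or more in both groups. The authors' deposited table gives m0060-5p an adjusted p of 0.153 and m0216-5p one of 0.267.

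Of the most abundant, several had separated groups without passing. m0047-3p stood at 29.4, 26.6 and 26.0 TPM in WR and 16.9, 21.2 and 18.5 TPM in YR (log2 fold change -0.29, SE 0.21; edgeR adjusted p = 0.42). m0085-3p, the one listed 7 times, stood at 32.2, 23.4 and 28.3 TPM in WR and 12.7, 20.1 and 18.4 TPM in YR (log2 fold change -0.45, SE 0.29; edgeR adjusted p = 0.364). In both every WR library was above every YR library in TPM. TMM factors, 0.987 to 1.19 in WR and 0.841 to 1.02 in YR, raise YR relative to WR.

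Others varied in TPM more between libraries of a group than between the group means. m0041-5p, the sequence that ends in CCA, stood at 52.9, 20.6 and 8.37 TPM in WR and 24.4, 21.3 and 9.05 TPM in YR, so that its WR libraries span more than its YR libraries. m0007-5p stood at 90.3, 99.8 and 102 TPM in WR and 107, 115 and 88.9 TPM in YR, m0016-3p at 34.5, 27.6 and 32.1 TPM against 31.6, 36.4 and 30.7 TPM, and m0029-5p at 22.6, 22.2 and 17.6 TPM against 23.7, 29.6 and 20.9 TPM. The groups of all 4 overlapped, and none passed the test. After TMM scaling, log2 fold changes were -0.30 (SE 0.63) for m0041-5p, 0.31 (SE 0.18) for m0007-5p and 0.31 (SE 0.19) for m0016-3p. For m0029-5p it was 0.49 (SE 0.21, edgeR adjusted p = 0.229). WR replicate 1 was under 0.5 times both other WR libraries for 7 of the 82 and over 2 times both for 1. For the other libraries, each beside those of its own group, these numbers were 0 to 4 and 0 to 2. They were not worked out over all entries.

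Counted once each, the 82 sequences took 0.107% ± 0.00405 of all WR counts and 0.0962% ± 0.00833 of all YR counts (SD over 3 libraries). By library the share was 0.103%, 0.111% and 0.107% in WR and 0.102%, 0.1% and 0.0866% in YR, so the groups did not overlap (2-sided exact permutation p = 0.1, the lowest that 3 against 3 libraries can reach). As 11 of the 82 averaged 1 TPM or more only in WR and 4 only in YR, this share and its p-values are a description. The difference, YR minus WR, was -0.0107 percentage points, or -0.0129 without WR replicate 1 (exact p = 0.2) and -0.00591 without YR replicate 3 (exact p = 0.2). The 3 most abundant sequences, with 61.4% of the summed TPM, weigh most in this share. Of these, m0005-5p had a lower mean TPM in YR (258 in WR, 175 in YR). The means of m0001-5p (323 and 350) and m0007-5p (97.4 and 104) were higher in YR. Over the 82, 43 log2 fold changes were positive and 39 negative after TMM scaling, which the share does not use. With library totals alone, as in the share, their median log2 fold change was -0.148, beside -0.256 over all 834 entries. With every entry added the groups overlapped, at 0.302%, 0.327% and 0.323% for WR and 0.308%, 0.306% and 0.264% for YR (exact p = 0.3). Counted once each, they made 21.4% ± 0.338 in WR and 21.5% ± 0.571 in YR of the counts of all predicted entries (SD over 3 libraries, 2-sided exact permutation p = 0.7). That denominator holds every repeat of these sequences, so the value is lower than the part that all their entries took.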

How the data were processed

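The members and lists were chosen with earlier results of these data known. Small RNA of 6 libraries was sequenced on an Illumina HiSeq Xten, per the labels' protocols. The authors deposited a whole-number count per entry and library, and a TPM score that equals the count times a constant per library and sums to 1039894 to 1052569. The authors' deposited log2 fold change stands beside a p-value and its adjusted form. The sources used here name no aligner, database, build or test, nor how reads with several matches were treated. The total of the deposited counts per library served as depth.

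Entries averaging 1 TPM or more were tested with edgeR 4.0.16 (R 4.3.3; TMM, quasi-likelihood, no replicate term); SE is the log2 fold change divided by the root of F. DESeq2 1.42.0 and limma 3.58.1 were alternatives. Where entries of a sequence differ, the one of highest summed count was used. Replicates of a group differed by far more than sampling noise (chi-square per degree of freedom 83.3 to 701). The steps were tested on simulated counts of 834 entries, 200 of them changed. Each entry was drawn independently, so repeats were not copies of each other, and no library was set apart. There 10% of 2-fold and 58% of 4-fold changes passed the threshold and 0% of the calls were false. These rates are over entries of all levels and were not worked out for scarce or repeated ones. A sequence that did not pass may therefore still differ between the groups. Sequences named were the 10 most abundant, the 5 listed most often, those past the threshold, those next to the floor, those whose entries differ most, and those with the seed of a known entry among the 50 most abundant, of which there were 0; other names are marked.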

Additional observations from a re-analysis of the deposited data

How the results depend on the processing

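Of the 82 repeated sequences, 7 were called. The number was 4 with library totals alone, 4 with no filter on low levels, 2 of 15 at a floor of 10 TPM, 16 with predicted entries alone, and 4 with 1 entry per distinct sequence and library totals, a setting chosen after seeing the data. It was 0 to 13 when single libraries were left out. Median-of-ratios scaling gave 7, DESeq2 10, limma 6 and 5 with 1 and 0.1 added to TPM, and 1 entry per distinct sequence 5. The labels state no pairing by replicate number, and 3 libraries per group cannot settle it. Deviations of same-numbered libraries correlated at 0.26, -0.104 and 0.27, and those of other pairs at -0.378 to 0.143. WR replicate 2 correlated best with YR replicate 3 (0.0979). With the replicate block edgeR called 0 of the 82, with 19 at an unadjusted p under 0.05, and 2 of all 834 entries. None of the 7 changed sign under the settings that tested them (at the floor of 10 TPM only m0060-5p was tested). As the 7 were picked from these same libraries and had separated groups, the kept sign is a description. The call was kept most often by m0433-3p (12 of 16) and least often by m0216-5p (4 of 16). As m0433-3p, m0225-3p and m0246-3p reached 1 TPM through WR only, how often their calls were kept is a description. The cause of these changes was not tested. The difference in their share of all counts, YR minus WR, was -0.0107 percentage points (0.107% in WR, 0.0962% in YR). Without single libraries it ran from -0.0135 to -0.00591. With only predicted entries, all repeats included, as the denominator, the difference was 0.113 percentage points. Those shares were 21.4% in WR and 21.5% in YR (2-sided exact permutation p = 0.7), so the sizes of the 2 differences cannot be compared. As some of the 82 reached 1 TPM through 1 group only, these differences are a description. At 2 TPM the rule gives 51 sequences, and at 0.5 TPM it gives 118. Scarce sequences limit the depth: the lowest summed count over 6 libraries was 54.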
